A study of Zea mays with 2182 samples.

Results

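Actin-depolymerizing factors and profilins are small actin-binding proteins, and 4 of their maize genes, ADF2, ADF3, PRO3 and PRO5, were followed here in single cells of the developing anther. They are 4 of the 22173 rows of a table of UMI counts (1 UMI is 1 captured transcript molecule). The 4 were selected on their levels in this same table: ADF2 and PRO3 because their molecules lay in 1 group of cells from 3.0 mm anthers, ADF3 and PRO5 because theirs were spread over all lengths. Their levels over lengths and groups are therefore a description, and no test was made of them.

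The cells came from untreated greenhouse plants of W23, a fertile maize inbred line, with anthers taken at 11 lengths between 0.5 and 3.0 mm. Anthers were fixed and digested (the FX-Cell procedure), single cells were dispensed with a Hana sorter, and CEL-Seq2 libraries were made, in which a transcript is tagged at its 3' end. Anthers of a length came from 2 plants or more, but which plant a cell came from is not labelled. Of 2182 deposited cells, the 1658 with at least 500 UMIs were used, at least 89 per length, with a median of 1342 and a maximum of 50159 UMIs per cell.

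Cell titles name a set, a number within the set, a length and a well, and cells that share set, number and length are called a pool. There were 58 pools with analysed cells, 45 of them with at least 8. The pool that the selection turned on, number 2 of set 3.29.22 at 3.0 mm, is called here the 3.29.22 2 pool. It held 27 analysed cells with 35550 UMIs, which is 1.63% of the analysed cells and 0.906% of their UMIs. The other 3.0 mm cells, 62 in 4 pools, held 97390 UMIs. Cells are not replicates, and no label says which cells of a pool came from one anther or plant, so intervals below are exact 95% intervals that cover counting error only.

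Actin filaments carry vesicles and organelles through plant cells and are needed for the tip growth of pollen tubes. Actin-depolymerizing factors sever filaments and speed the loss of subunits from their ends, while profilins bind actin monomers and hold the pool from which filaments grow. Both families have divided in flowering plants into isoforms of pollen and isoforms of other tissues. In maize, ADF2 is a pollen isoform and ADF3 the form of vegetative tissues. PRO3 belongs to the profilin class made in pollen, and PRO4 and PRO5 to the class made elsewhere in the plant.

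The pollen isoforms were high in the 3.29.22 2 pool and at or close to 0 in all other cells. PRO3 had a level of 5091 CPM in the pool (counts per 1000000 UMIs; interval 4377 to 5890). In the other 3.0 mm cells PRO3 had 0 UMIs. A floor of 3 UMIs over that group is 30.8 CPM, and the pool's level was 165.3 times this floor. The exact upper limit for 0 UMIs is higher, at 37.9 CPM, so this fold is not a lower bound. ADF2 had 60 UMIs and 1688 CPM (1288 to 2172) in the pool, against 0 UMIs in the other 3.0 mm cells, and stood at 54.8 times the same floor. The vegetative isoforms did not share this pattern. ADF3 had 7 UMIs and 196.9 CPM (79.2 to 405.7) in the pool, against 42 UMIs and 431.3 CPM (310.8 to 582.9) in the other 3.0 mm cells. PRO5 had 4 UMIs and 112.5 CPM (30.7 to 288.1) in the pool, against 28 UMIs and 287.5 CPM (191.04 to 415.5) in the other 3.0 mm cells. Both were lower in the pool, but the counting intervals of pool and other cells overlapped. Such an overlap does not decide whether the levels differed, and no test was made. A level here is a share of a group's UMIs: fewer cells that hold a transcript and fewer transcripts per cell give the same sum. For PRO3 and ADF2 the counts per cell are given further on. ADF3 had a UMI in 6 of 27 cells of the pool and in 21 of the 62 other 3.0 mm cells. PRO5 had a UMI in 4 of 27 and in 19 of 62. For these genes the counts in the pool are too low to separate the readings.

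Over the whole series, all PRO3 UMIs lay in the 3.29.22 2 pool (100%, 97.98% to 100%) and 60 of 66 ADF2 UMIs did (90.9%, 81.3% to 96.6%). ADF3 had 7 of 1692 UMIs there (0.414%) and PRO5 had 4 of 1218 (0.328%), beside the 0.906% of all UMIs that the pool held. PRO3 was seen in 0 of the 1631 other cells, which allows a share of cells with a UMI of up to 0.226%. ADF2 was seen in 6 of those 1631 cells, with 1 UMI in each. Those 6 cells were 2 at 2.25 mm, in pools 3.29.22 1 and 8.18.21 3, and 4 at 2.5 mm, all in pool 8.18.21 1. None of the 6 had a PRO3 or EXPB1 UMI, and ADF2 was at 0 at the other 8 lengths below 3.0 mm.

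**Figure D1:**
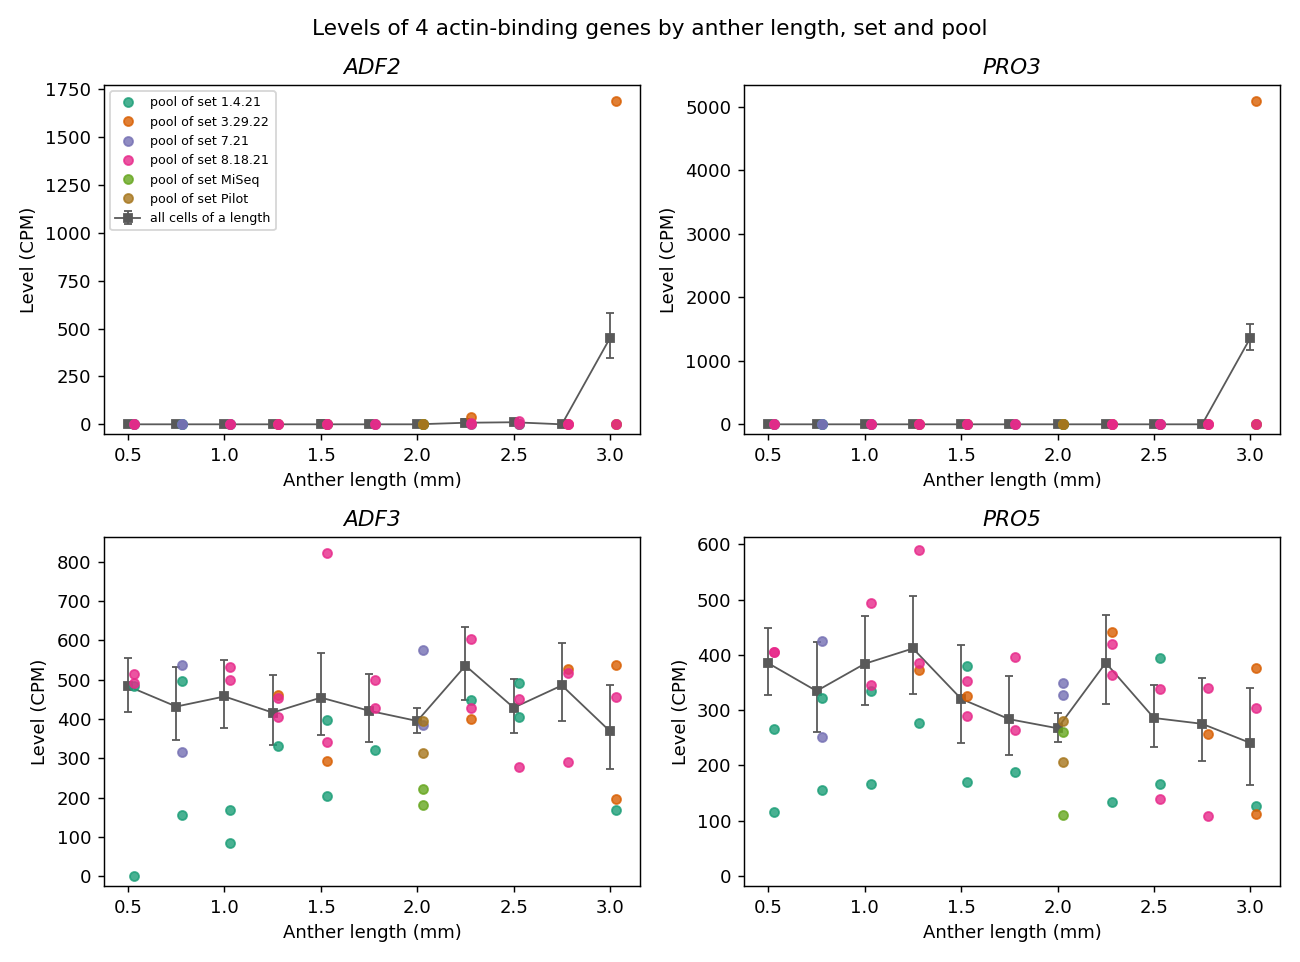
Level in CPM of ADF2, PRO3, ADF3 and PRO5 against anther length in mm. Grey squares and line are the sum over all analysed cells of a length with its 95% Poisson interval, and coloured points are pools with at least 8 cells, coloured by set and drawn slightly to the right. ADF2 and PRO3 lie at or close to 0 except for 1 pool at 3.0 mm, at 1688 and 5091 CPM, while ADF3 and PRO5 scatter without such a pool.

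Few features of the table were confined in this way. Of 14281 features with at least 30 UMIs, 76 (0.532%) had at least 50% of them in the 3.29.22 2 pool. ADF2 and PRO3 were among them, and since their selection used this pool, nothing is read from that count. These 76 features held 6444 UMIs, or 18.1% of the pool's UMIs, and 35 of them had no UMI elsewhere. By UMI count in the pool PRO3 stood sixth among the 76. The threshold of 50% was set for this count and did not choose the members, whose values of 90.9% and 100% against 0.414% and 0.328% lie far from it.

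**Figure D2:**
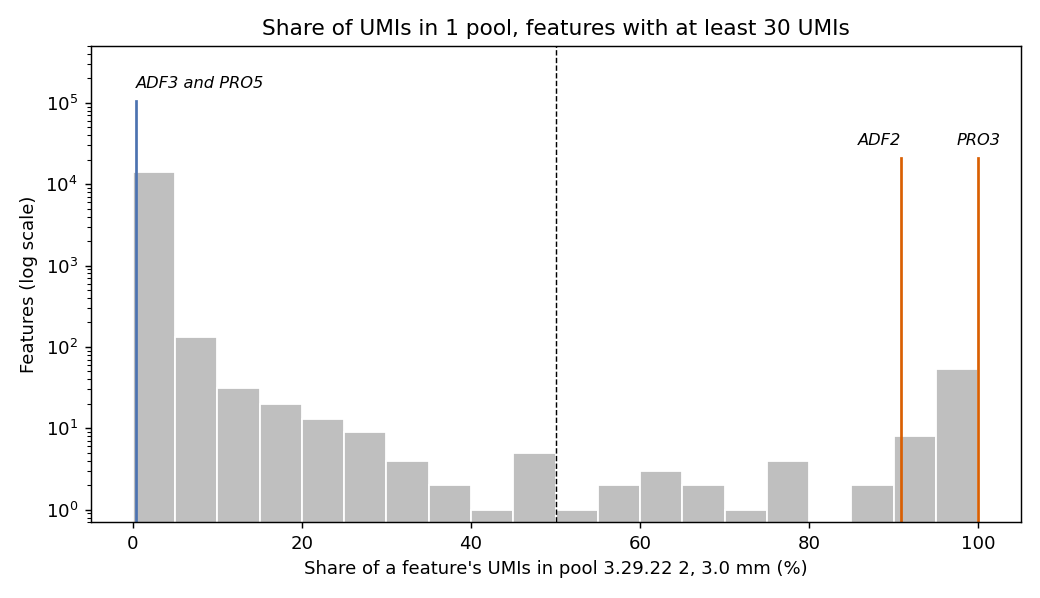
Number of features (log scale) by the share of their UMIs in the 3.29.22 2 pool, in bins of 5%, for the 14281 features with at least 30 UMIs. The first bin holds 13987 features, ADF3 and PRO5 among them, and ADF2 (90.9%) and PRO3 (100%) stand in the small group at the right. The dashed line marks 50%.

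Of the 76 features with at least 30 UMIs and at least 50% of them in the pool, 5 carry a gene symbol. These are PRO3 and ADF2, which were selected on this pool, and EXPB1, MGS1 and PG6. All the others carry no symbol, among them the feature with most UMIs in the pool. The named genes therefore do not describe the whole group. EXPB1, a beta-expansin that loosens grass cell walls and is a major pollen allergen, had 431 of its 432 UMIs in the pool, at 12124 CPM. MGS1, whose symbol stands for a male gametophyte-specific gene, had 64 of 70 UMIs there, at 1800 CPM. PG6, a polygalacturonase, an enzyme type that cuts wall pectin and is abundant in maize pollen, had all 51 of its UMIs there, at 1435 CPM. EXPB10 and EXPB11, beta-expansins that are also known from pollen, had too few UMIs for this count, but all 10 and all 29 of their UMIs were in the pool. In the other 3.0 mm cells each of these 5 genes had 0 UMIs. For EXPB1, MGS1 and PG6, named here for their share in the pool, low counts elsewhere follow from that choice.

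The name given to the 4 genes, isoforms of anther and of pollen, was set beside marker lists. The lists were chosen with earlier results of these data known, so they are not an independent check. Of 15 genes listed as pollen markers, 6 had a row (ADF2, PRO3, EXPB1, EXPB10, EXPB11 and MGS1). Their sum was 775 UMIs and 21800 CPM in the pool, with 0 of the 6 at 0, against 0 UMIs in the other 3.0 mm cells. This sum includes ADF2 and PRO3, which were selected on this pool. The 4 other genes of the list summed to 534 UMIs and 15021 CPM (13774 to 16351) in the pool, against 0 UMIs in the other 3.0 mm cells. Over all 1631 cells outside the pool these 4 genes gave 7 UMIs and 1.80 CPM. Green cell genes (RBCS, CAB1, PSAH and PSBQ1) were at 4979 CPM in the pool, against 5442 CPM in the other 3.0 mm cells. C2, the chalcone synthase at the entry to flavonoid synthesis, was at 675.1 CPM in the pool and 5339 CPM in the other 3.0 mm cells, where single pools ran between 0 and 7615 CPM. The replication genes (FEN1, ROA2 and DMT105) had 4 UMIs and 112.5 CPM in the pool, against 5 UMIs and 51.3 CPM in the other 3.0 mm cells. The single epidermis marker with a row, CR4, had 0 UMIs in the pool and 1 in the other 3.0 mm cells, as had the single meiosis marker with a row, RAD51B, and no tapetum marker had a row. The labels name the cells only as anther cells, and the data go no further than these marker levels.

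**Figure D3:**
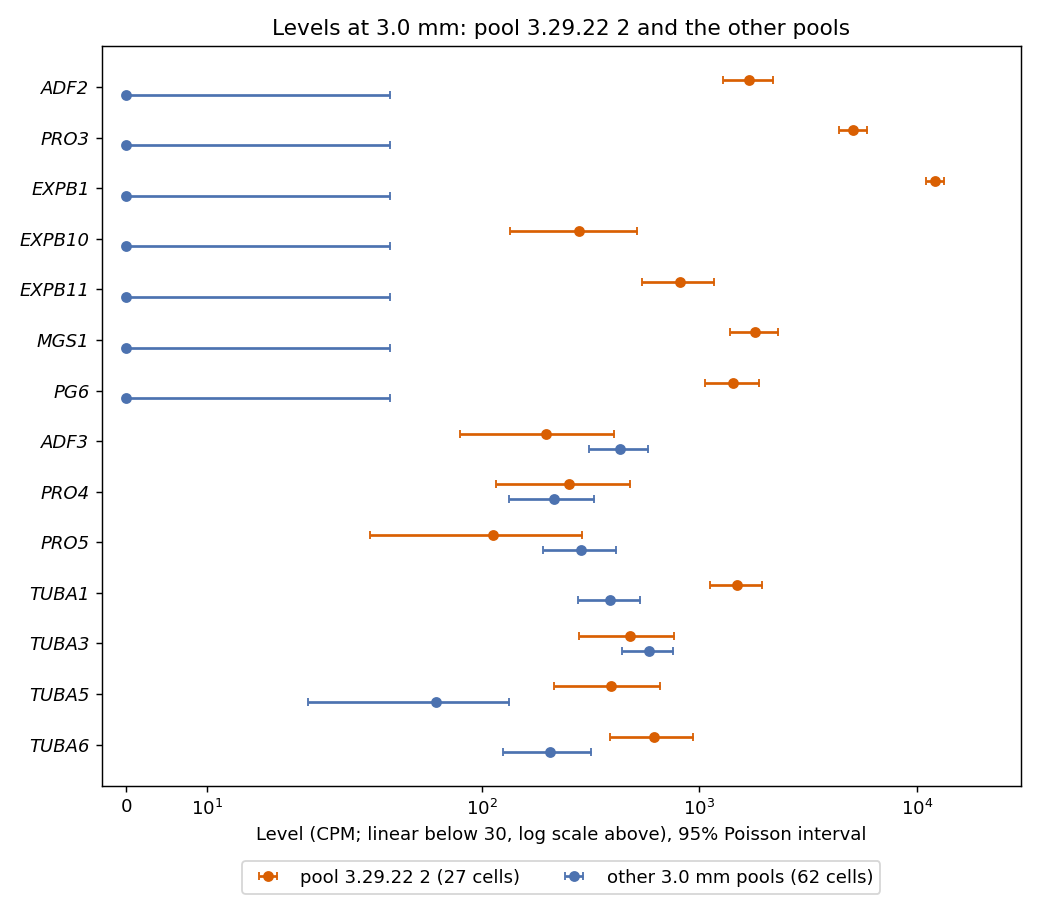
Level in CPM at 3.0 mm of the pollen genes, the 4 members, PRO4 and the alpha-tubulins, in the 3.29.22 2 pool (orange, 27 cells) and in the other 3.0 mm pools (blue, 62 cells), with 95% Poisson intervals; the axis is linear below 30 CPM and logarithmic above. The upper 7 genes have 0 UMIs in the other pools, and ADF3, PRO4, PRO5 and TUBA3 have overlapping intervals.

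The alpha-tubulins, which form microtubules, the second filament system of the cell, were compared as the other cytoskeleton genes of the table. TUBA1 had 1491 CPM (1117 to 1950) in the pool, against 390.2 CPM (276.1 to 535.6) in the other 3.0 mm cells, a ratio of 3.82. TUBA5 had 393.8 CPM (215.3 to 660.7) in the pool, against 61.6 CPM (22.6 to 134.1) in the other 3.0 mm cells, a ratio of 6.39. TUBA6 had 618.8 CPM (387.8 to 936.9) in the pool, against 205.4 CPM (125.4 to 317.2) in the other 3.0 mm cells, a ratio of 3.01. For these 3 genes the counting intervals did not overlap, but the group is 1 pool and no test was made. TUBA3 had 478.2 CPM in the pool and 585.3 CPM in the other 3.0 mm cells. PRO4, the other profilin with a row, had 253.2 CPM (115.8 to 480.6) in the pool and 215.6 CPM (133.5 to 329.6) in the other 3.0 mm cells. The tubulins differed from the pollen isoforms in being present everywhere: outside the pool TUBA1 averaged 1018 CPM and TUBA6 218.1 CPM over all lengths, and TUBA1 reached 1395 CPM at 0.5 mm. The ratio of TUBA5 rests on 6 UMIs in the other 3.0 mm cells. Over all cells outside the pool TUBA5 was at 230.4 CPM, inside the pool's interval, and at 1.25 mm it reached 449.0 CPM. Gamma-tubulin TUBG2, of the complex that nucleates microtubules, had 0 UMIs in all 89 cells of 3.0 mm. This allows up to 27.7 CPM, above the 15.2 CPM of TUBG2 over all cells outside the pool, so absence is not shown.

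Summed over its cells, the pool held within each family the opposite mixture of isoforms to the rest of the anther cells. The sum does not describe each cell, since only 14 of the 27 cells held a UMI of ADF2 or PRO3. The shares restate levels that the selection used and were not tested. ADF2 made up 60 of 67 ADF2 and ADF3 UMIs in the pool (89.6%, 79.7% to 95.7%). In the other 3.0 mm cells it made up 0 of 42, which allows up to 8.41%. Over all cells outside the pool it made up 6 of 1691 (0.355%). PRO3 made up 97.8% of the PRO3 and PRO5 UMIs in the pool (94.6% to 99.4%). In the other 3.0 mm cells it made up 0 of 28, which allows up to 12.3%. With PRO4 included, PRO3 was 93.3% of the profilin UMIs in the pool (88.8% to 96.4%). CEL-Seq2 counts a molecule once whatever its length, so no length correction was applied. Unequal capture of the transcripts of a family was not tested.

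**Figure D4:**
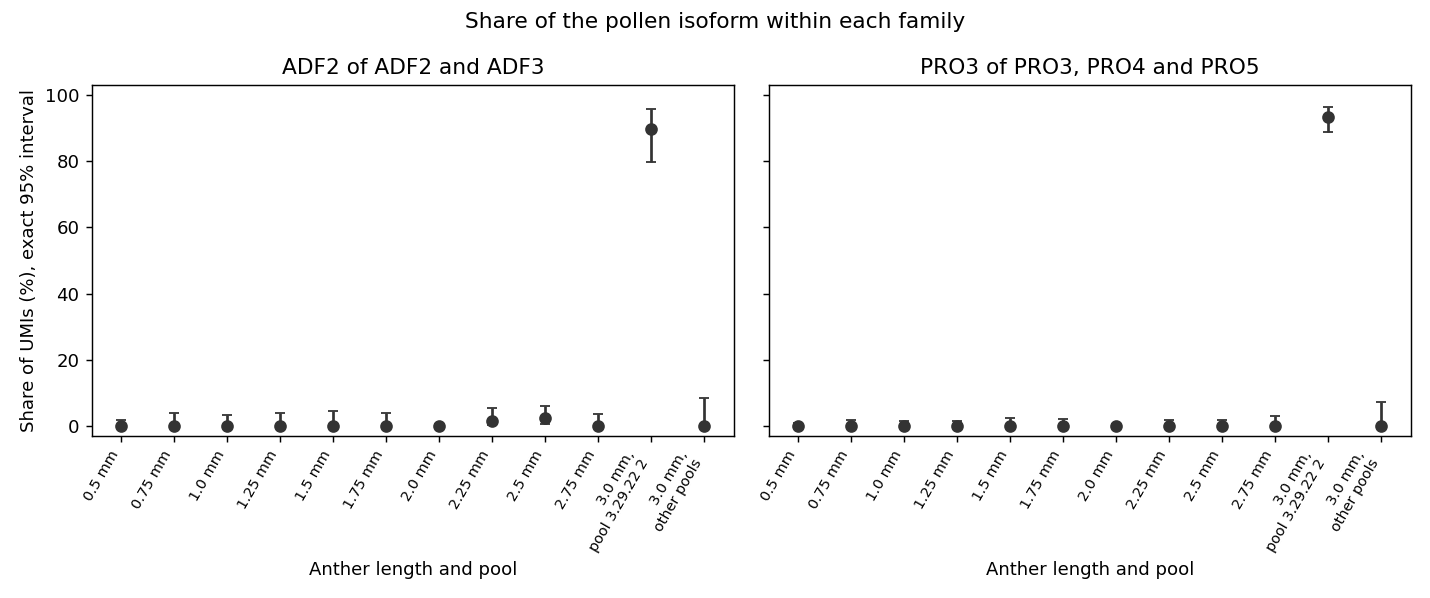
Share in percent of ADF2 among ADF2 and ADF3 UMIs (left) and of PRO3 among the UMIs of all 3 profilin rows (right), by anther length, with the 3.0 mm cells split into the 3.29.22 2 pool and the other pools; bars are exact 95% binomial intervals. The pool stands at 89.6% and 93.3%, and the values of all other groups lie at or below 2.45%.

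Cell by cell, the pollen isoforms occurred together. A UMI of ADF2 or PRO3 was found in 14 of the 27 cells of the pool: 9 held both, 4 held PRO3 alone and 1 held ADF2 alone. The 13 cells with PRO3 had 79, 19, 16, 15, 11, 11, 9, 7, 5, 4, 2, 2 and 1 UMIs of it, and its level per cell had a median of 7067 CPM and a range of 1248 to 30596 CPM. The 10 cells with ADF2 had 27, 6, 6, 5, 5, 4, 3, 2, 1 and 1 UMIs, at 795 to 6674 CPM. A single cell was far above the others in both counts, and the rest fell off without a gap. PRO3 outnumbered ADF2 in all 13 cells that held it, and over the pool it had 3.02 UMIs for each ADF2 UMI. The cell with the highest share, in well 20, had 19 PRO3 UMIs among a total of 621.

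EXPB1, which was not used to choose the members, divided the pool in nearly the same way. It had a UMI in 13 cells, and 12 of the 13 PRO3 cells and 9 of the 10 ADF2 cells were among them. The exceptions were wells 46 (2 PRO3 and 1 ADF2 UMIs, no EXPB1) and 37 (3 ADF2 and 10 EXPB1 UMIs, no PRO3). The 13 EXPB1 cells held 58.5% of the pool's UMIs, but 59 of 60 ADF2 UMIs, 98.9% of PRO3 UMIs, 63 of 64 MGS1 UMIs and all PG6, EXPB10 and EXPB11 UMIs. Their depth was close to that of the 14 cells without EXPB1: the medians were 1008 UMIs and 554 features in EXPB1 cells, and 1104 UMIs and 691 features in the cells without.

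ADF3 and PRO5 were sparse on both sides of that division. The EXPB1 cells held 3 of the pool's 7 ADF3 UMIs and 1 of its 4 PRO5 UMIs, counts too low to compare with the 58.5% of all UMIs. PRO4 had 0 of its 9 UMIs in EXPB1 cells (0% to 33.6%), an interval below 58.5%. It was found in 6 cells, none of which held ADF2 or PRO3. Among the tubulins, 20 of 22 TUBA6 UMIs (90.9%, 70.8% to 98.9%) lay in EXPB1 cells, an interval above 58.5%. So did 12 of 14 TUBA5 UMIs (85.7%, 57.2% to 98.2%), with an interval that holds 58.5%. TUBA1 had 37 of 53 UMIs there (69.8%, 55.7% to 81.7%), an interval that also holds 58.5%. TUBA3 had 5 of 17 (29.4%, 10.3% to 56.0%), an interval below it. These intervals treat each UMI as an independent draw, but UMIs of a gene lay together in few cells. The cell with most UMIs in the pool alone held 7 of the 22 TUBA6 UMIs, and the 9 PRO4 UMIs lay in 6 cells. Where an interval lies beside 58.5% is therefore a description, and enrichment in EXPB1 cells was not tested.

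**Figure D5:**
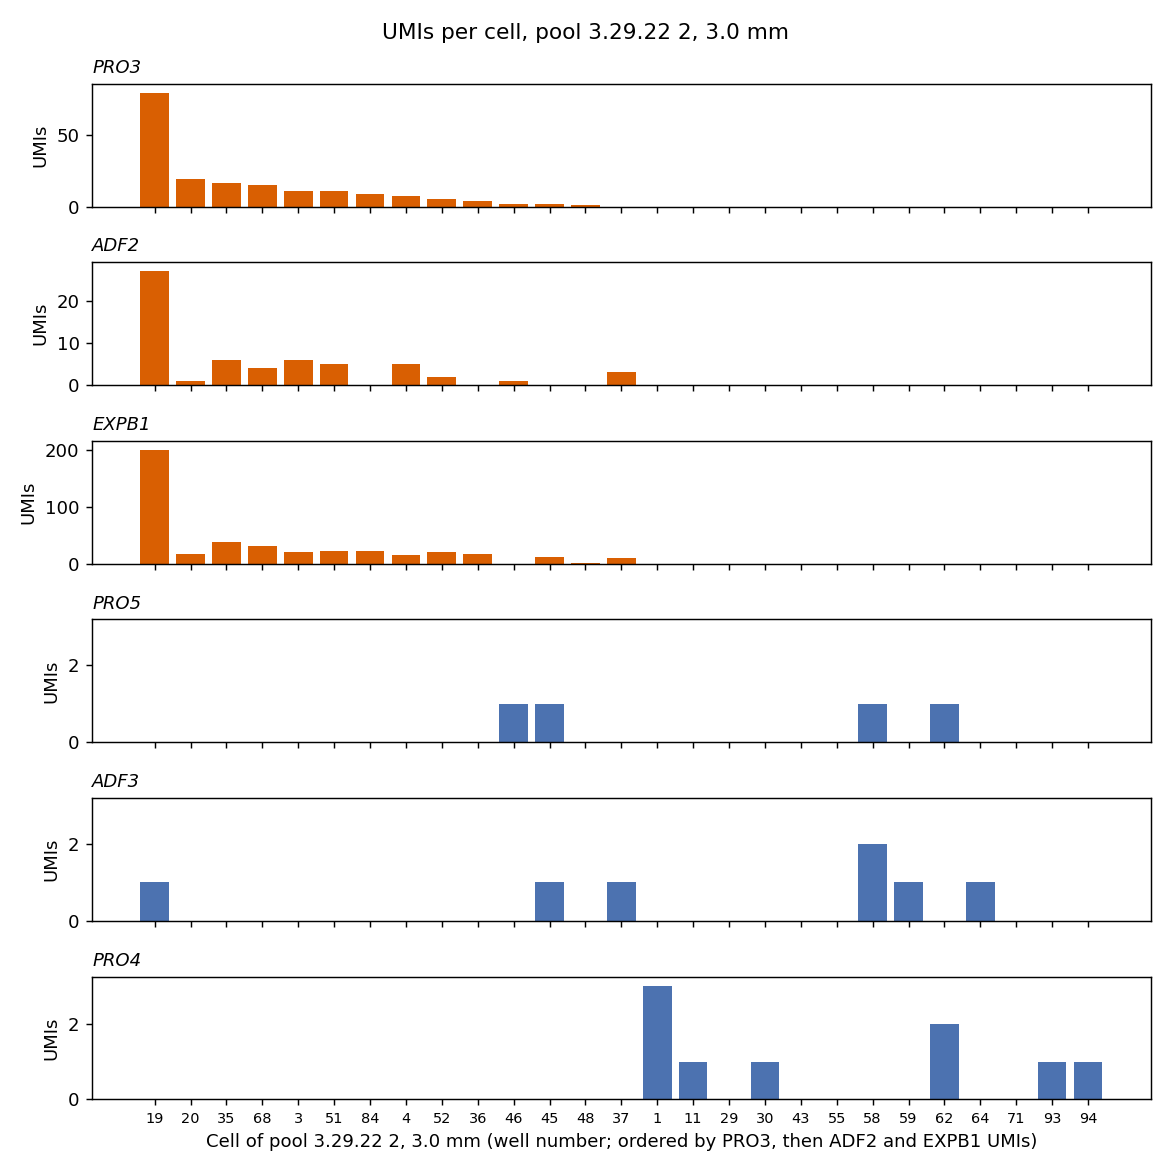
UMIs of PRO3, ADF2, EXPB1, PRO5, ADF3 and PRO4 in each of the 27 analysed cells of the 3.29.22 2 pool, labelled by well number and ordered by PRO3 UMIs; vertical scales differ between panels. PRO3, ADF2 and EXPB1 fill the same cells on the left, and PRO4 occurs only among the cells without them.

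One cell carried much of the count. The cell in well 19, the deepest of the pool with 6864 UMIs, held 79 PRO3 and 27 ADF2 UMIs, with EXPB1 at 29283 CPM. These counts are 43.6% of the pool's PRO3 and 45.0% of its ADF2 UMIs. Without it the pool still had PRO3 at 3556 CPM (2899 to 4316) and ADF2 at 1150 CPM (791.9 to 1616). The share of PRO3 UMIs in the pool was then again 100%, and that of ADF2 84.6%. The count of features with at least 50% of their UMIs in the pool was 44 without this cell. Of the tubulins, TUBA1 was then at 1185 CPM (820.8 to 1656) and TUBA5 at 313.7 CPM (143.5 to 595.6), still above the intervals of the other 3.0 mm cells. TUBA6, at 522.9 CPM (292.7 to 862.4), then overlapped the interval of the other 3.0 mm cells.

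In cells that shared a well number with the 14 positive cells these transcripts were at or close to 0. Of the 27 well numbers of the pool, 7 also occur in pool 3.29.22 1 at 3.0 mm. In the other pools, the cells with the same well numbers had 816027 UMIs in all, and they held 2 ADF2, 0 PRO3 and 1 EXPB1 UMIs. Of these, 32 cells were of set 3.29.22, with 1 ADF2, 0 PRO3 and 0 EXPB1 UMIs. Below the 500-UMI limit, 20 further cells of the pool with 7025 UMIs had 11 PRO3, 6 ADF2 and 31 EXPB1 UMIs. The 504 other cells below the limit, with 185869 UMIs, had 0 of each. Whether the plant, the anther or the set number goes with the pool cannot be told apart, because the 3.0 mm pools carry no label for any of them beyond set and number.

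The vegetative isoforms were present at every length, ADF3 within a 1.45-fold range and PRO5 within a 1.71-fold range. In order of length between 0.5 and 3.0 mm, ADF3 stood at 483.5, 431.7, 457.4, 416.3, 454.6, 421.02, 394.9, 535.8, 428.8, 485.5 and 368.6 CPM. Its highest level, at 2.25 mm, was 1.45 times its lowest, at 3.0 mm, and the mean over lengths was 443.5 ± 46.7 CPM (SD, n = 11 lengths). PRO5 stood at 384.8, 334.7, 383.9, 411.6, 320.5, 283.6, 267.3, 385.6, 285.9, 275.3 and 240.7 CPM in the same order. Its highest level, at 1.25 mm, was 1.71 times its lowest, at 3.0 mm, with a mean of 324.9 ± 58.7 CPM (SD, n = 11 lengths).

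Ordered by level, each length overlapped its neighbour in counting interval for both genes, in 10 of 10 steps. Sorting puts like levels side by side, and PRO4 also gave 10 of 10, so this count does not show an even level. Of the 55 pairs of lengths, 1 did not overlap for ADF3 and 4 did not for PRO5. Both genes were chosen for their spread over lengths, and the pairs were not counted over all features, so nothing is read from these counts. The 3.0 mm value includes the 3.29.22 2 pool: without it, ADF3 was at 431.3 and PRO5 at 287.5 CPM, and 3.0 mm was then no longer the lowest length for either gene. PRO4 had a wider range, between 225.7 CPM at 3.0 mm and 664.5 CPM at 0.75 mm, and 27 of its 55 pairs of lengths did not overlap.

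Pools, with fewer UMIs each, spread more widely than lengths did. Over the 45 pools with at least 8 cells, ADF3 ran between 0 and 823.2 CPM with a median of 405.9, and PRO5 between 109.2 and 589.7 CPM with a median of 321.3. PRO5 had a UMI in all 45 pools and ADF3 in 44. The exception was pool 1.4.21 1 at 0.5 mm, which had 10 analysed cells and 8577 UMIs, so that 0 UMIs allow up to 430.1 CPM. In the same pools ADF2 was at 0 in 41 and PRO3 in 44.

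The set of a cell went with part of this scatter. At all 8 lengths where both sets had at least 8 cells, set 1.4.21 had the lower level of ADF3 than set 8.18.21, and the same held for PRO5. Over these 8 lengths ADF3 had a median of 321.9 CPM in set 1.4.21, against 493.2 CPM in set 8.18.21. PRO5 had a median of 215.9 CPM in set 1.4.21, against 371.8 CPM in set 8.18.21. Within set 8.18.21 ADF3 ran between 420.4 and 618.2 CPM over 9 lengths and PRO5 between 286.8 and 448.0 CPM, and both were present at every one. No label explains the sets, and their part in the levels was not tested.

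At 3.0 mm the 3.29.22 2 pool lay near the low end for the vegetative isoforms. ADF3 was at 196.9 CPM in that pool, against 169.3 CPM in pool 1.4.21 4, 538.2 CPM in 3.29.22 1, 456.9 CPM in 8.18.21 10 and 792.8 CPM in 8.18.21 9, which had 4 cells. PRO5 was at 112.5 CPM in that pool, against 127.01, 376.8, 304.6 and 264.3 CPM in the same 4 pools. The pool therefore lay inside the range of the other 3.0 mm pools for ADF3 and just below it for PRO5.

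Per cell, the vegetative isoforms were thinly spread. ADF3 had a UMI in 820 of the 1658 analysed cells and PRO5 in 698, with at most 19 and 13 UMIs in a cell. The 10 cells with most UMIs held 7.21% of all ADF3 UMIs and 7.06% of all PRO5 UMIs, against 90.9% for ADF2 and 97.2% for PRO3. Outside the 3.29.22 2 pool ADF3 was detected in 49.9% of cells as sequenced and in 19.1% once each cell was thinned to 500 UMIs, and PRO5 in 42.6% and 14.7%. Thinned shares by length lay between 15.8% and 23.3% for ADF3 and between 11.2% and 21.3% for PRO5. ADF3 and PRO5 were found together in 453 of the 1631 cells outside the pool. In the pool, PRO3 was detected in 48.1% of cells as sequenced and in 37.0% after thinning, and ADF2 in 37.0% and 33.3%. The background share of these 2 genes, in cells of the other 3.0 mm pools, was 0 of 62 cells for each. For each gene this allows up to 5.78%. Median depths were 1097 UMIs in the pool and 955.5 UMIs in those cells.

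Change over length was fitted for all features on the 11 sums, with edgeR's quasi-likelihood test of a slope in log2 units per mm. Of 5537 features tested, 885 rose (16.0%) and 785 fell (14.2%) at a false discovery rate of 0.05. ADF3 had a slope of 0.20 (SE 0.10) and PRO5 of 0.01 (SE 0.11) beside a median of 0.01 over all tested features. Both slopes are given without a test because the genes were chosen for their spread over lengths. ADF2 and PRO3 had too few UMIs outside 3.0 mm to enter the fit.

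No other cytoskeleton row passed the edgeR test of change over length. Of the 6 that are not members, 5 were tested and 0 passed, against the 16.0% and 14.2% above, and 1 of the 5 (PRO4) had an unadjusted p under 0.05. PRO4 had a slope of -0.32 (SE 0.12), with a Benjamini-Hochberg adjusted p of 0.0604 from edgeR and 0.0456 from DESeq2. The slopes of TUBA1, TUBA3 and TUBA5 were -0.17, -0.21 and -0.25, with edgeR adjusted p-values of 0.320, 0.339 and 0.197. TUBA6 had a slope of 0.29 (edgeR adjusted p = 0.144), and TUBG2 was too low to be tested. With library size as the only scaling, which lowered the median slope of all features to -0.23, PRO4, TUBA1 and TUBA5 passed with negative slopes and the slope of ADF3 was -0.047.

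Over pools the pattern of ADF2 was like that of PRO3 and the pattern of ADF3 like that of PRO5, a division that the selection of the 4 genes had already used. Likeness was measured as Pearson's r of log2(CPM + 50) over the 45 pools, for 7765 features with at least 100 UMIs. ADF2, with 66 UMIs, was under that limit and was added because it is a member. These pools share sets, lengths and depth, so r describes them and carries no test. ADF2 had an r of 0.98 with PRO3 and of -0.13 with ADF3, its own family member. PRO3 had an r of -0.28 with PRO5. ADF3 and PRO5 had an r of 0.59 with each other, beside a median over all features of 0.13 for ADF3 and 0.16 for PRO5. The r of ADF2 and PRO3 rests on the 3.29.22 2 pool: without it PRO3 is at 0 throughout and has no r.

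The features with a symbol that came closest to each member followed the same division. PRO3 was closest to EXPB1 (0.998) and then to ADF2, and ADF2 was closest to PRO3 and then to EXPB1 (0.981). These values rest on the 3.29.22 2 pool, which held 431 of 432 EXPB1 UMIs. Without that pool ADF2 had an r of -0.04 with EXPB1, and PRO3 had no r. TBP2, a TATA-binding protein of the general transcription machinery, followed at 0.48 for PRO3 and 0.49 for ADF2. MGS1 and PG6, with 70 and 51 UMIs, were under the limit of 100 UMIs and were not compared. The place of TBP2 therefore holds only among symbols past that limit. ADF3 was closest to ALS1, an acetolactate synthase of branched-chain amino acid synthesis (0.66), then to PRO5 (0.59) and to BX9, a glucosyltransferase of benzoxazinoid defence compounds (0.56). PRO5 was also closest to ALS1 (0.60), then to ADF3 (0.59) and RPS4 (0.50). This order depended on the pools: over the 11 lengths the r of ADF3 was 0.20 with ALS1 and 0.26 with BX9, and that of PRO5 with RPS4 was 0.79. The r of ADF3 with PRO5 was 0.57 to 0.58 under the alternatives run. For TBP2 the r over the 11 lengths was 0.35 with both ADF2 and PRO3, and without the 3.29.22 2 pool it was 0.12 with ADF2.

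The table has no rows named ADF1, PRO1 or PRO2, and these genes were not analysed here. All 4 members matched the RefSeq gene table (assembly Zm-B73-REFERENCE-NAM-5.0) by an older gene identifier. The older identifier of PRO3 belongs to 2 RefSeq genes, as does an older identifier of PRO5, while those of ADF2 and ADF3 belong to 1 gene each. How reads of near-identical copies were counted is not given, so the PRO3 and PRO5 counts may include molecules of a close copy.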

How the data were processed

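The authors deposited 1 table of raw UMI counts per feature and cell (whole numbers, not normalised), in which each cell is a sample. The submitters' processing notes list HISAT2 and, as genome build, B73 RefGen_v4; of versions, counter and filters nothing is given. Length, set, number and well came from cell titles. Cells with at least 500 UMIs were summed per length, set and length, or pool, and levels are UMIs per 1000000 summed UMIs (CPM), with sums of 132940 to 1496508 UMIs per length. Intervals are exact 95% Poisson or binomial intervals (scipy 1.17.1) and cover counting error only. What a count of 0 allows is the upper end of the exact interval. The floor used for folds was set at 3 counts, which is below that end. Doublets were not removed, since cells were dispensed singly. RefSeq coordinates belong to another build and none are given.

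The trend used the 11 sums in edgeR 4.0.16 with R 4.3.3 (TMM factors; low features removed by filterByExpr; quasi-likelihood F-test; Benjamini-Hochberg over all tested features) and was tested on simulated data. Its p-values measure the scatter of 1 sum per length around a line. DESeq2 1.42.0 was an alternative, as were other scalings, filters, cell limits, sets and left-out lengths. Likeness used a pseudocount of 50 CPM.

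The genes named were the 4 members, all rows of a cytoskeleton list of symbols (10 present), the 3 features with a symbol most like each member, the features with a symbol, at least 30 UMIs and at least 50% of them in the pool, and marker lists. EXPB10 and EXPB11 came from the pollen marker list. The members and lists were chosen with earlier results of these data known. The set and number of a title do not pair cells of different lengths by any label.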

Additional observations from a re-analysis of the deposited data

Results flagged for a closer look

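Pools with at least 8 cells were compared within each length that had 4 to 10 of them, which made 36 groups over the 4 genes. In 14 of them, all of ADF2 or PRO3, every pool was at 0, and in the other 22 a pool was marked where its gap to the nearest other pool passed Dixon's 95% critical value for the group's range. Of these 22 groups 5 were marked. Chance marks about 1 in 20 groups, but that rate cannot be read against this count: the 3.29.22 2 pool was used to select PRO3 and ADF2, and a single pool above 0 among pools at 0 is always marked. At 3.0 mm the 3.29.22 2 pool stood apart for PRO3, at 5091 CPM against 0 in the other 3 such pools, and for ADF2, at 1688 CPM against 0. At 2.25 mm ADF2 was at 40.1 CPM in pool 3.29.22 1, which is 1 UMI. At 2.5 mm ADF2 was at 16.1 CPM in pool 8.18.21 1, which is 4 UMIs in 4 cells. At 0.5 mm ADF3 was at 0 CPM in pool 1.4.21 1.

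A signal also appeared in cells that the 500-UMI limit left out. In the 20 such cells of the 3.29.22 2 pool PRO3 was at 1566 CPM and ADF2 at 854.1 CPM, against 0 for both in the 504 other cells below the limit.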

How the results depend on the processing

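The share of PRO3 UMIs in the 3.29.22 2 pool was 100% and that of ADF2 84.6% to 91.7% under every alternative run. The level at 3.0 mm over all pools, 1362 CPM for PRO3 and 451.3 CPM for ADF2, was 0 for both without the pool. Without the deepest cell, an alternative chosen after seeing the data, it was 809.0 CPM for PRO3 and 261.7 CPM for ADF2. Of features with at least 50% of UMIs in the pool (0.532% of those tested) there were 44 without that cell (0.309%), 22 of 7765 with at least 100 UMIs (0.283%) and 0.859% of the 18752 with at least 10 UMIs.

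With library size alone as the scaling, which moved the median slope of all features to -0.23, 490 features rose (8.85%) and 1528 fell (27.6%). The slopes were then -0.047 for ADF3 and -0.24 for PRO5 beside that median, and PRO4, TUBA1 and TUBA5 passed the edgeR test (adjusted p = 0.00492, 0.0233 and 0.0181). With no filter 1489 features rose (6.72%) and 1146 fell (5.17%) of 22173. With a replicate block of set and number, 3.39% of 4397 features rose and 29 fell (0.660%), with slopes of 0.51 (SE 0.27) for ADF3 and 0.24 (SE 0.22) for PRO5; no label makes these numbers pair cells. Leaving out a length in turn gave 12.5% to 15.9% rising and 9.22% to 13.1% falling features, slopes of 0.19 to 0.25 for ADF3 and -0.01 to 0.04 for PRO5. PRO4 passed the edgeR test with set as a covariate (adjusted p = 0.00760) and without 0.5 mm (0.0462), and TUBA6 without 2.5 mm (0.0358). The causes of these changes were not tested. Without the pool ADF2 had an r of -0.04 with EXPB1. Depth limits comparisons of ADF3 and PRO5 within the pool, where they had 7 and 4 UMIs.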
